A study of Mus musculus with 2 samples.

Results

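The replication-dependent histone genes are the mouse genes whose symbols begin with Hist1h, Hist2h, Hist3h or Hist4h. GENCODE M21 holds 70 of them, and 66 had at least 1 transcript in the deposited table, out of 36980 genes with a symbol. Hist1h2bh, Hist1h2bm, Hist1h3h and Hist1h3i had no transcript under a matching identifier and were not analysed here. The 66 genes had 74 listed transcripts, and 64 genes reached 1 RPKM (reads per kilobase of transcript, scaled to the number of reads in the library) in at least 1 library, the level called measured below. Hist1h2aa and Hist1h2al did not reach it.

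RNA came from mouse pro-B cells, the bone marrow precursors of B lymphocytes, that were Setdb1 Δ/Δ (column Del of the table) or Setdb1 C/C (column Wt). The cells of both genotypes carried a bcl2 transgene, were sorted from bone marrow and were cultured with interleukin 7 at 5 ng/µl until day 4. Each genotype had 1 library of ribosome-depleted total RNA, so each difference below is one between 2 libraries, without replicates. The labels give no age, sex or strain of the animals, and do not say how the alleles were deleted, what part of the gene is missing or how many animals were used.

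Replication-dependent histone genes supply the core histones H2A, H2B, H3 and H4 and the linker histone H1 that package newly made DNA, and their mRNAs accumulate in S phase. The genes have no introns as a rule, and their mRNAs end in a conserved stem-loop in place of a poly(A) tail. The stem-loop-binding protein SLBP holds this structure, and the U7 small nuclear RNA guides the cut that follows it. SETDB1 methylates lysine 9 of histone H3, so the genes described here encode, among others, its substrate.

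The stem-loop is shown because it is the sequence that sets these mRNAs apart from polyadenylated ones. It was searched for beyond most of the coding length, counted from the start of the transcript. The pattern was a stem of 6 base pairs that opens with GG and closes with CC, G-T pairs allowed, around a loop of 4 bases that opens with TT. The stem-loop was found in 42 of the 66 transcripts that stand for the genes. Whether the other 24 models stop before it was not tested, and 11 of the 66 hold the coding sequence alone. In the lines below the stem-loop is in capitals with up to 5 flanking bases on each side, written 5′ to 3′ as DNA from the GENCODE M21 transcripts (GRCm38).
Hist1h4d: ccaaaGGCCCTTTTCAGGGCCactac
Hist1h4j: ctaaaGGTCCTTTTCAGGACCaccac
Hist1h1e: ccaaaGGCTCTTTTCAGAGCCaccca
Hist1h3c: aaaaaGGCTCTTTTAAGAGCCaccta
Hist1h2ap: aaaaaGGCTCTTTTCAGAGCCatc
Hist2h2aa1: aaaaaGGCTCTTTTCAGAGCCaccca
The form of Hist1h1e, Hist1h2ap and Hist2h2aa1 was the commonest, in 24 of the 42 transcripts, and none of these was an H4 gene. All 11 H4 stem-loops had another stem, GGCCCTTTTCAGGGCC in 7 genes, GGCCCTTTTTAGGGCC in 2 and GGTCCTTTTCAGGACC in 2. Hist1h2ap and Hist2h2aa1, the members with the highest and the lowest ratio between the libraries, thus carried the same 16 bases.

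The promoters also differed by type. RefSeq promoters (GRCm38.p6, 250 bases before to 50 after the start) were matched for 58 of the 66 genes. CCAAT, the box bound by NF-Y, stood on either strand in all 46 promoters outside H4 and in 3 of 12 H4 promoters, against 37.4% of all promoters in the table. GGTCCG, the core of the H4 element bound by HINFP, stood in 11 of 12 H4 promoters and in none of the others, against 8.3% of all promoters. The octamer ATTTGCAT, bound by POU2F1 and known from H2B promoters, stood in 6 of 14 H2B and 7 of 18 H2A promoters, against 1.7%. TATAAA stood in 33 of 58 members, against 13.6%. No motif contains another, each was searched on both strands, and a match is a description of the sequence only. Windows of H2A and H2B genes that lie head to head can overlap, as for Hist1h2ae and Hist1h2bg. The same match is then counted for both genes, so these promoters are not all separate sequences.

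Of the lines below, each gives the 150 bases before the RefSeq start of 1 gene, with matches to these motifs in capitals. The rest of the window in which motifs were counted is left out, including a TATAAA match of Hist2h2aa1 after its start. Hist1h4d and Hist1h2bb are shown as highly expressed H4 and H2B genes, and Hist1h2ap and Hist2h2aa1 as the members furthest apart in their ratio. They lie at chr13:23581418-23581567 on the plus strand, chr13:23746584-23746733 on the plus strand, chr13:21833476-21833625 on the minus strand and chr3:96245347-96245496 on the plus strand, in that order.
Hist1h4d: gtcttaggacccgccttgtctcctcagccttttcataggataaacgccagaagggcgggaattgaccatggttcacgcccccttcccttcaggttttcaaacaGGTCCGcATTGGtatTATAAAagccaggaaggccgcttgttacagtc
Hist1h2bb: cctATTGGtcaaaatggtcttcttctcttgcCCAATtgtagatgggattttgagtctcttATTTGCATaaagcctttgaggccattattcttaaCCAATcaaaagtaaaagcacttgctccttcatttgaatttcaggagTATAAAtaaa
Hist1h2ap: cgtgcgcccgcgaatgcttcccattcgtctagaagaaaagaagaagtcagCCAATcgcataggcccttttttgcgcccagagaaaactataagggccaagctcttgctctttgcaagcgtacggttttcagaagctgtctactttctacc
Hist2h2aa1: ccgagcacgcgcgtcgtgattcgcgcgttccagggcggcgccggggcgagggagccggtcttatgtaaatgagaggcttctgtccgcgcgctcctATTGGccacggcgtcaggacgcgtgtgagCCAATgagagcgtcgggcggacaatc
ATTGG in these lines is CCAAT on the other strand.

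The libraries held 193.3 M reads in Δ/Δ and 170.6 M reads in C/C, recovered from the steps of the RPKM values. Setdb1 measured 12.6 RPKM in Δ/Δ and 16.97 RPKM in C/C over the whole transcript, which need not show the deletion. Of 12 B lineage markers, all above 1 RPKM in both libraries, 0 were higher and 4 lower in Δ/Δ by the rule given below. Over all measured genes, 6.28% were higher and 6.66% lower by that rule. Of 12 myeloid markers 10 were measured, 8 of them higher in Δ/Δ and none lower. Of those higher, S100a8, Ngp, Ltf, Camp, Fcer1g and Csf3r were below 1 RPKM in C/C. They counted as measured through Δ/Δ alone, so these calls partly follow from the filter. The myeloid list summed to 234 RPKM in Δ/Δ and 22.9 RPKM in C/C, where the granule genes Mpo and Elane were listed at 0. Of 10 erythroid and platelet markers 6 were measured, all of them higher, with sums over the list of 76.7 RPKM in Δ/Δ and 8.86 RPKM in C/C. Among these, Pf4 and Ppbp counted as measured through Δ/Δ alone. Of 8 T lineage markers 3 were measured, 2 higher and 1 lower, with sums over the list of 95.9 RPKM in Δ/Δ and 99.6 RPKM in C/C. Cd4, one of the higher T lineage markers, also counted as measured through Δ/Δ alone. Cd3e and Trbc1 were listed at 0 in C/C. Xist, the RNA of the inactive X chromosome, measured 23.7 RPKM in Δ/Δ and 0.0940 RPKM in C/C. The part of other cells or of this X chromosome difference in the histone values was not tested.

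The first comparison asks how the level of this family differed between the genotypes. Most members differed little. The ratio used is log2((Δ/Δ + 0.5) / (C/C + 0.5)) of the RPKM, with higher standing for a value of at least 1 and lower for one of at most -1, a 2-fold difference on that scale. By this rule 1 of the 64 measured members was higher and 7 were lower. Of those lower, Hist2h2aa1 and Hist1h2aj were below 1 RPKM in Δ/Δ and counted as measured through C/C alone. Among all 12556 measured genes 6.28% were higher and 6.66% lower. The median log2 ratio of the members was -0.07, beside -0.09 over all measured genes, and 46 of 64 members lay within 0.5 of 0. The direction of that median is not stable, since it was 0.02 after centring on the median of all genes. In bulk RNA, fewer cells in S phase and less histone RNA per cell cannot be told apart.

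Over the whole family the summed level was 25384 RPKM in Δ/Δ and 27190 RPKM in C/C, a ratio of 0.934. The members took 1.77% of all reads in Δ/Δ and 1.95% in C/C. Both libraries therefore held histone mRNA at nearly the same high level. The members with a mean of at least 100 RPKM, 46 of the 64, included 1 higher and 0 lower gene. That gene, Hist1h2ap, was at 207 RPKM in Δ/Δ and 68.9 RPKM in C/C, so it reached this mean through Δ/Δ. The mean uses both libraries, so this split is not independent of the difference between them. The 18 members below that mean included all 7 lower ones. The shares of all measured genes were 6.28% higher and 6.66% lower.

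**Figure D1:**
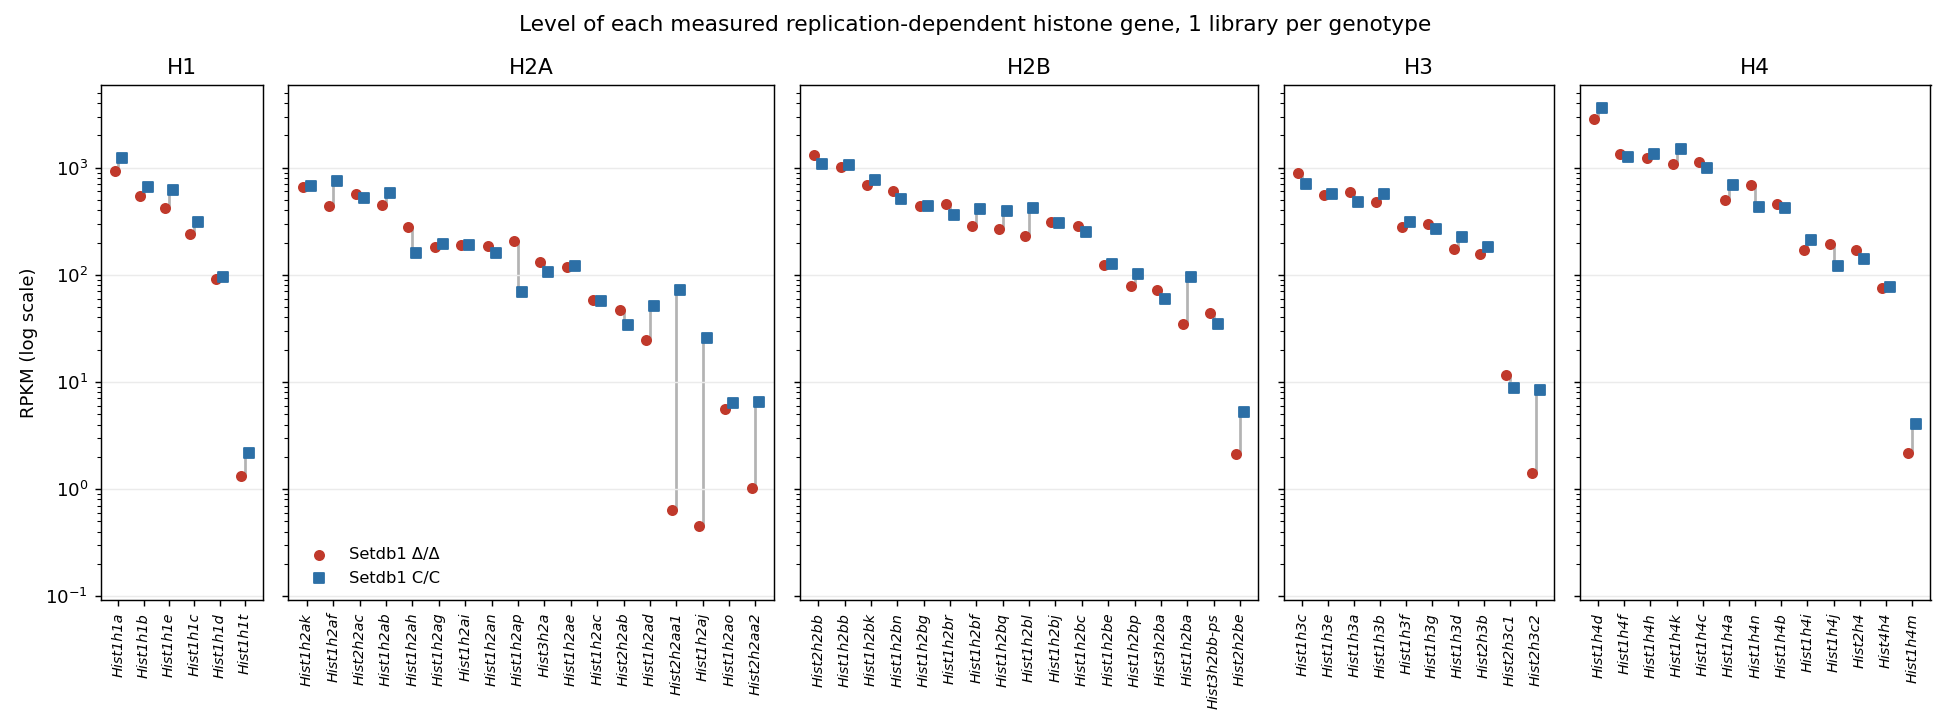
RPKM on a log axis for each of the 64 measured members, grouped by histone type and ordered by mean level, with Setdb1 Δ/Δ as circles and Setdb1 C/C as squares (1 library each). Most pairs of points nearly coincide, and the widest gaps are those of Hist2h2aa1 (0.643 RPKM in Δ/Δ and 72.2 RPKM in C/C) and Hist1h2aj (0.456 RPKM in Δ/Δ and 25.8 RPKM in C/C).

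The linker histone H1, which binds the DNA where it enters and leaves the nucleosome, was the type with the lowest median. All 6 H1 genes had a value below 0, none passed the rule, and their median log2 ratio was -0.38. Of all measured genes, 57.7% had a value below 0, and their median was -0.09. Hist1h1a, which encodes H1.1, measured 935 RPKM in Δ/Δ and 1229 RPKM in C/C. Hist1h1e (H1.4) measured 419 RPKM in Δ/Δ and 616 RPKM in C/C, a ratio of 0.680 with a 95% counting interval of 0.673 to 0.686 and the lowest log2 ratio of the H1 genes. All such intervals are exact ones for 2 Poisson counts, each 2 reads taken as 1 fragment, and cover counting error only.

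The other somatic H1 genes lay in the same range or nearer to equality. Hist1h1b (H1.5) measured 539 RPKM in Δ/Δ and 656 RPKM in C/C. Hist1h1c (H1.2) measured 239 RPKM in Δ/Δ and 309 RPKM in C/C. Hist1h1d (H1.3) was nearest to equal, at 90.5 RPKM in Δ/Δ and 96.3 RPKM in C/C, and its log2 ratio of -0.09 was 0.01 after centring. Its annotated model runs 7425 bases, 4884 of them after the stem-loop. Hist1h1t, the testis form, was low in both libraries, at 1.33 RPKM in Δ/Δ and 2.15 RPKM in C/C. Summed over the type, H1 reached 2224 RPKM in Δ/Δ and 2909 RPKM in C/C, a ratio of 0.765, and H1 made up 8.76% of the family's sum in Δ/Δ and 10.7% in C/C. The H1 genes share 0% to 5% of their windows of read length with genes elsewhere. Of the windows of Hist1h1e, 21.6% also lie in transcripts of the overlapping genes Gm11398 and Hist1h2be, so those reads cannot be assigned by sequence.

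H4, which with H3 forms the inner tetramer of the nucleosome, was the most abundant type. Its 13 genes summed to 9920 RPKM in Δ/Δ and 10771 RPKM in C/C, about the same share of the family in both (39.1% in Δ/Δ and 39.6% in C/C). None passed the rule, the median log2 ratio was -0.03, and 7 were below and 6 above 0. Hist1h4d was the highest member of the whole family in both libraries, at 2851 RPKM in Δ/Δ and 3580 RPKM in C/C. It shared no window of read length with another gene.

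Of the other leading H4 genes, Hist1h4f and Hist1h4h stood closest between the libraries, whereas Hist1h4k had a ratio of 0.726. Hist1h4f measured 1349 RPKM in Δ/Δ and 1266 RPKM in C/C. Hist1h4h measured 1238 RPKM in Δ/Δ and 1352 RPKM in C/C. Hist1h4k measured 1080 RPKM in Δ/Δ and 1488 RPKM in C/C, and Hist1h4c, 1137 RPKM in Δ/Δ and 992 RPKM in C/C, so their order differed between the libraries. Hist1h4n had the highest log2 ratio of the type, 0.69, with 687 RPKM in Δ/Δ and 425 RPKM in C/C. Hist1h4m, its near-identical copy, had the lowest, -0.78, with 2.15 RPKM in Δ/Δ and 4.04 RPKM in C/C. Summed, the copies reached 689 RPKM in Δ/Δ and 429 RPKM in C/C, a ratio of 1.60.

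H3 had 10 genes in the table. They summed to 3449 RPKM in Δ/Δ and 3323 RPKM in C/C, a ratio of 1.04, with a median log2 ratio of -0.09. Hist1h3c measured 892 RPKM in Δ/Δ and 700 RPKM in C/C, Hist1h3a 596 RPKM in Δ/Δ and 479 RPKM in C/C, and Hist1h3e 560 RPKM in Δ/Δ and 574 RPKM in C/C. Hist1h3c and Hist1h3a had log2 ratios of 0.35 and 0.32, and that of Hist1h3e was -0.04, or 0.06 after centring. The highest log2 ratio of the type was that of Hist2h3c1, 0.38, at 11.6 RPKM in Δ/Δ and 8.79 RPKM in C/C. Hist2h3c2 was the H3 gene past the rule, with 1.42 RPKM in Δ/Δ and 8.35 RPKM in C/C, a ratio of 0.170 (interval 0.141 to 0.204). It shares 61.5% of its windows of 101 bases, the read length, with Hist2h3c1, a nearby copy in opposite orientation.

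H2B had 17 measured genes with a median log2 ratio of -0.04, and 2 were lower, beside 6.66% of all measured genes. Hist2h2bb led, at 1304 RPKM in Δ/Δ and 1080 RPKM in C/C, followed by Hist1h2bb at 1015 RPKM in Δ/Δ and 1060 RPKM in C/C and Hist1h2bk at 686 RPKM in Δ/Δ and 766 RPKM in C/C. These leading H2B genes differed by less than 1.3-fold. All windows of Hist2h2bb also lie in overlapping transcripts of other genes at the same place, among them the antisense RNA gene Gm20628 (179 RPKM in Δ/Δ and 156 RPKM in C/C), so reads cannot be assigned to one of them by sequence.

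Both lower H2B genes were well below those levels. Hist1h2ba, the testis and oocyte form TH2B, measured 34.9 RPKM in Δ/Δ and 95.9 RPKM in C/C, a ratio of 0.364 (interval 0.341 to 0.388), from 2590 reads in Δ/Δ and 6286 in C/C. Its level in C/C ranked 48 of the 66 members, and 27.1% of its windows also occur in other genes. Hist2h2be measured 2.12 RPKM in Δ/Δ and 5.28 RPKM in C/C, a ratio of 0.401 (interval 0.361 to 0.445). It shares no window with a transcript of a gene elsewhere. Hist1h2aa, the testis H2A gene that lies head to head with Hist1h2ba, was at 0.292 RPKM in Δ/Δ and 0.15 RPKM in C/C, from 22 reads in Δ/Δ and 10 in C/C. The wider list of germline histone forms named 14 genes, of which 3 were measured, with 0 higher and 2 lower, the other lower one being H3f3c (1.20 RPKM in Δ/Δ and 3.34 RPKM in C/C). The shares of all measured genes were 6.28% higher and 6.66% lower.

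H2A held the extremes of the family. Its 18 measured genes had a median log2 ratio of -0.02, with 1 higher and 4 lower, beside 6.28% higher and 6.66% lower of all measured genes. Of the 3 most abundant, 2 were close, with Hist1h2ak at 665 RPKM in Δ/Δ and 676 RPKM in C/C and Hist2h2ac at 564 RPKM in Δ/Δ and 516 RPKM in C/C. The other, Hist1h2af, had a log2 ratio of -0.75, at 442 RPKM in Δ/Δ and 744 RPKM in C/C.

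Hist2h2aa1 (ENSMUST00000078756, GRCm38 chromosome 3, 96245497 to 96246082, plus strand) measured 0.643 RPKM in Δ/Δ and 72.2 RPKM in C/C. These are 73 reads in Δ/Δ and 7220 in C/C, a ratio of 0.00890 (interval 0.00626 to 0.0124), the lowest of the family. Its copy Hist2h2aa2 (chromosome 3, 96239749 to 96240276, minus strand) measured 1.03 RPKM in Δ/Δ and 6.56 RPKM in C/C. The listed values of both copies were lower in Δ/Δ, and their sum was 1.67 RPKM in Δ/Δ and 78.8 RPKM in C/C, 47.1-fold lower in Δ/Δ. All windows of Hist2h2aa2 occur in Hist2h2aa1, so most reads cannot be assigned to one of them by sequence. Whether each copy was lower on its own therefore cannot be told. Their promoters matched at 249 of 260 aligned bases. The pair made up 0.0470% of the H2A sum in Δ/Δ and 2.09% in C/C.

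The surroundings of these copies did not all differ in the same way. Gm20632, an antisense RNA gene that overlaps Hist2h2aa2, measured 0.910 RPKM in Δ/Δ and 17.1 RPKM in C/C. Gm20633, the antisense RNA gene that overlaps Hist2h2aa1, measured 1.30 RPKM in Δ/Δ and 2.93 RPKM in C/C and stayed within the rule. Hist2h3c1, the H3 gene next to Hist2h2aa1, was slightly above equality as given above, and Hist2h3c2, next to Hist2h2aa2, was lower. Gm20634, which overlaps both Hist2h2aa1 and Hist2h3c1, measured 8.28 RPKM in Δ/Δ and 8.36 RPKM in C/C. These 4 histone genes lie as an inverted repeat, and the labels do not say that strand was kept, so histone and antisense reads cannot be told apart here.

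Hist1h2aj (chromosome 13, 21721457 to 21721808, minus strand), annotated as an unprocessed pseudogene, measured 0.456 RPKM in Δ/Δ and 25.8 RPKM in C/C, a ratio of 0.0177 (interval 0.00995 to 0.0291) from 31 reads in Δ/Δ and 1549 in C/C. It shares 91.7% of its windows with Hist1h2ai, which stood at 188 RPKM in both Δ/Δ and C/C. Hist1h2ad measured 24.7 RPKM in Δ/Δ and 51.0 RPKM in C/C, at the edge of the rule (log2 ratio -1.03, and -0.94 after centring). Its closest copy, Hist1h2ah, went the other way, at 278 RPKM in Δ/Δ and 159 RPKM in C/C. Summed over the 4 linked copies Hist1h2ad, Hist1h2ah, Hist1h2ai and Hist1h2aj, the level was 491 RPKM in Δ/Δ and 424 RPKM in C/C. Hist1h2ah and Hist1h2ai supplied most of this sum, so it says little about Hist1h2ad and Hist1h2aj.

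Hist1h2ap (chromosome 13, 21833026 to 21833507, minus strand) was the higher member, with 207 RPKM in Δ/Δ and 68.9 RPKM in C/C. The ratio was 3.003 (interval 2.88 to 3.13) from 19280 reads in Δ/Δ and 5669 in C/C. Its inverted copy Hist1h2ao measured 5.62 RPKM in Δ/Δ and 6.36 RPKM in C/C, and together they reached 213 RPKM in Δ/Δ and 75.3 RPKM in C/C, 2.82-fold higher. The copies share 92.6% of the windows of the shorter one, and the 200 aligned bases of their promoters were identical. They supplied 5.98% of the H2A sum in Δ/Δ and 2.001% in C/C. Hist1h4n, which lies beside Hist1h2ap in the same inverted repeat, was the H4 gene with the highest ratio.

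Another pair of copies in that repeat is that of the H2B genes Hist1h2bq and Hist1h2br, whose values depended on the transcript. The 381-base model that stood for Hist1h2bq (ENSMUST00000078156) measured 269 RPKM in Δ/Δ and 398 RPKM in C/C. Its 2 longer spliced models, by contrast, were far higher in Δ/Δ. ENSMUST00000091749 measured 10.8 RPKM in Δ/Δ and 0.401 RPKM in C/C, a ratio of 27.0 (interval 19.9 to 37.4), and ENSMUST00000110469 measured 11.4 RPKM in Δ/Δ and 0.561 RPKM in C/C, a ratio of 20.4 (interval 16.6 to 25.3). The corresponding spliced models of Hist1h2br differed little, at 19.8 RPKM in Δ/Δ and 17.9 RPKM in C/C for ENSMUST00000180288 and 13.5 RPKM in Δ/Δ and 11.6 RPKM in C/C for ENSMUST00000110467. All windows of ENSMUST00000091749 also occur in Hist1h2br.

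The 381-base models of this pair carry a further limit. The table otherwise follows genomic order around the members, but the row of ENSMUST00000078156 stands among transcripts that start between 23477676 and 23571396 on chromosome 13, whereas M21 places it at 21809791. The row of ENSMUST00000110476, the 381-base model of Hist1h2br (455 RPKM in Δ/Δ and 365 RPKM in C/C), likewise stands outside its M21 position. Their gene assignment in the authors' annotation is therefore uncertain. Without these 2 transcripts, an alternative chosen after seeing the data, Hist1h2bq was a higher member with a log2 ratio of 3.49, and the count of higher members was 2.

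**Figure D2:**
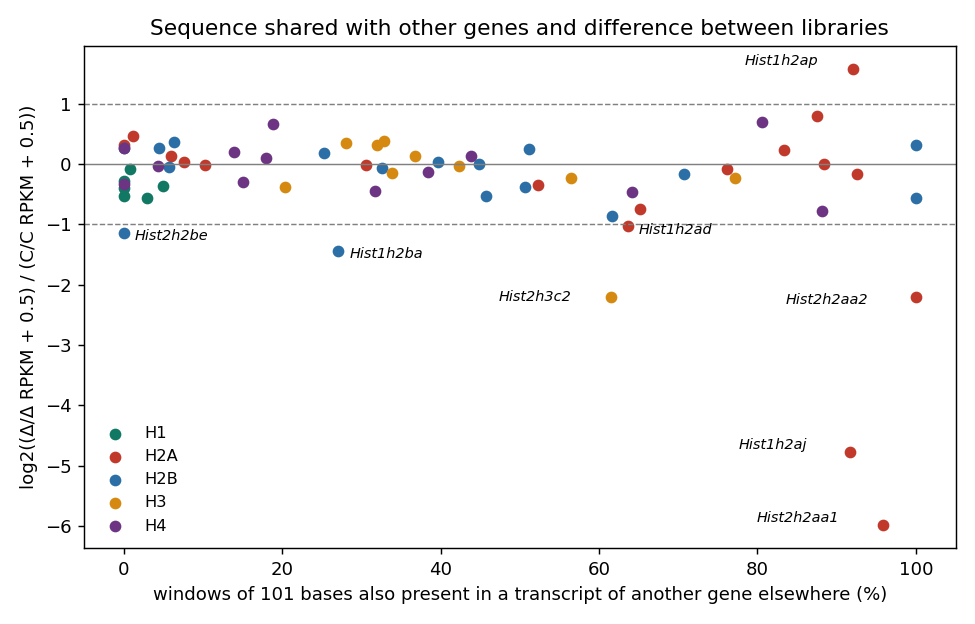
Log2 ratio of Δ/Δ to C/C for the 64 measured members against the percentage of their 101-base windows that also occur in a transcript of another gene elsewhere in the annotation, coloured by histone type, with dashed lines at the 2-fold rule. Of the 8 members past the rule, named in the plot, Hist2h2be alone shares no window, and the 12 members with at least 80% shared include 1 higher and 3 lower genes. The shares of all measured genes were 6.28% higher and 6.66% lower.

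Sequence sharing ran through most of the family. Of the 66 genes, 57 shared at least 1 window of read length with a gene elsewhere, and 9 shared none. The 12 measured members with at least 80% of windows shared held 1 higher and 3 lower genes, with log2 ratios from -5.99 to 1.58, and the 52 others held 4 lower genes and ratios from -2.21 to 0.66. The shares of all measured genes were 6.28% higher and 6.66% lower. With near-identical copies summed into groups, an alternative also chosen after seeing the data, 1 was higher and 4 were lower. The sums of the core types H2A, H2B, H3 and H4 had ratios of 0.945, 0.970, 1.04 and 0.921.

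**Figure D3:**
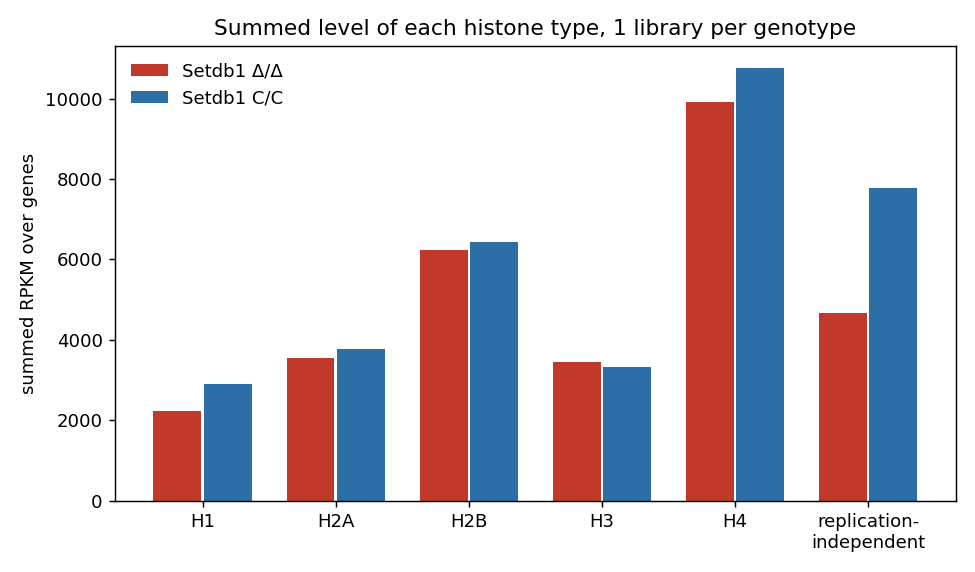
Summed RPKM of the genes of each histone type and of the replication-independent histones, with bars from 0 for Setdb1 Δ/Δ (left of each pair) and Setdb1 C/C (right), 1 library each. The core types are close between libraries, H1 is lower in Δ/Δ (2224 RPKM in Δ/Δ and 2909 RPKM in C/C), and the replication-independent genes differ most (4668 RPKM in Δ/Δ and 7782 RPKM in C/C).

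By cluster, the Hist1 genes on chromosome 13 made up 89.8% of the family's sum in Δ/Δ and 91.4% in C/C. Their median log2 ratio was -0.11, with 1 higher and 3 lower of 50 measured. By the same rule, 6.28% of all measured genes were higher and 6.66% lower. The Hist2 genes on chromosome 3 had 4 lower of 10 and a median of -0.05, and their sum was 2259 RPKM in Δ/Δ and 2055 RPKM in C/C. All 3 Hist3 genes on chromosome 11 were above 0, with a median of 0.32. Hist3h2a measured 133 RPKM in Δ/Δ and 106 RPKM in C/C, Hist3h2ba 72.4 RPKM in Δ/Δ and 60.0 RPKM in C/C, and the processed pseudogene Hist3h2bb-ps 44.4 RPKM in Δ/Δ and 34.4 RPKM in C/C. Hist4h4, the member of the Hist4 locus, measured 75.3 RPKM in Δ/Δ and 76.8 RPKM in C/C. The Hist3 and Hist4 genes thus stayed within 1.5-fold.

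H2A and H2B genes often lie head to head around a shared promoter, and 13 such pairs had annotated starts 173 to 306 bases apart. The members of a pair did not always have like ratios. Hist1h2ae measured 119 RPKM in Δ/Δ and 120 RPKM in C/C and its partner Hist1h2bg 441 RPKM in Δ/Δ and 442 RPKM in C/C, whereas Hist2h2ac and Hist2h2be differed by 1.27 in log2 ratio. In 12 pairs both members were measured, and the pair of Hist1h2ba with the unmeasured Hist1h2aa is left out of what follows. The median difference within a pair was 0.45, and 7 of 12 pairs had both members on the same side of 0. Without the pairs that hold Hist1h2bq or Hist1h2br, the median difference was 0.39 and the same side was shared in 5 of 10.

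The second comparison sets the family beside histone genes that are made outside S phase and carry poly(A) tails. The replication-independent histone genes, of which H2afx is made in both ways, had lower log2 ratios as a list than the replication-dependent ones. All 10 measured genes of this list had a log2 ratio below 0, with a median of -0.56, and 3 of 10 were lower by the rule and 0 higher. Of all measured genes, 57.7% had a log2 ratio below 0, 6.66% were lower and 6.28% higher. No test of the difference between the groups was made, since genes are not replicates.

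H3f3a, which encodes the replacement histone H3.3, measured 2177 RPKM in Δ/Δ and 4549 RPKM in C/C, a log2 ratio of -1.06 that was -0.97 after centring. H3f3b, the other H3.3 gene, measured 411 RPKM in Δ/Δ and 587 RPKM in C/C. Replacement H3 was thus below C/C from both genes, while the sum of replication-dependent H3, which lacks Hist1h3h and Hist1h3i, was not. The median log2 ratio of replication-dependent H3 was -0.09, with 6 of 10 genes below 0, so this contrast depends on the measure. H1f0 (H1.0), the linker histone of slowly dividing and differentiated cells, measured 5.70 RPKM in Δ/Δ and 30.6 RPKM in C/C, a ratio of 0.186 (interval 0.174 to 0.198). H1fx (H1.10) measured 0.449 RPKM in Δ/Δ and 4.60 RPKM in C/C, a ratio of 0.0977 (interval 0.0724 to 0.130). These were the lowest 2 ratios among the measured genes of the list, and both are linker histone genes, the type that was also lowest among the replication-dependent members. H1fx was below 1 RPKM in Δ/Δ, so it counted as measured through C/C alone.

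The replacement H2A genes had log2 ratios between -0.82 (H2afv) and -0.21 (H2afz). H2afz measured 1199 RPKM in Δ/Δ and 1386 RPKM in C/C, and H2afv 202 RPKM in Δ/Δ and 358 RPKM in C/C. Both encode H2A.Z, which marks promoters. H2afx, which is phosphorylated at DNA breaks, measured 254 RPKM in Δ/Δ and 349 RPKM in C/C. Cenpa, the H3 form of centromeres, measured 71.6 RPKM in Δ/Δ and 95.3 RPKM in C/C. None of these 4 genes passed the rule.

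**Figure D4:**
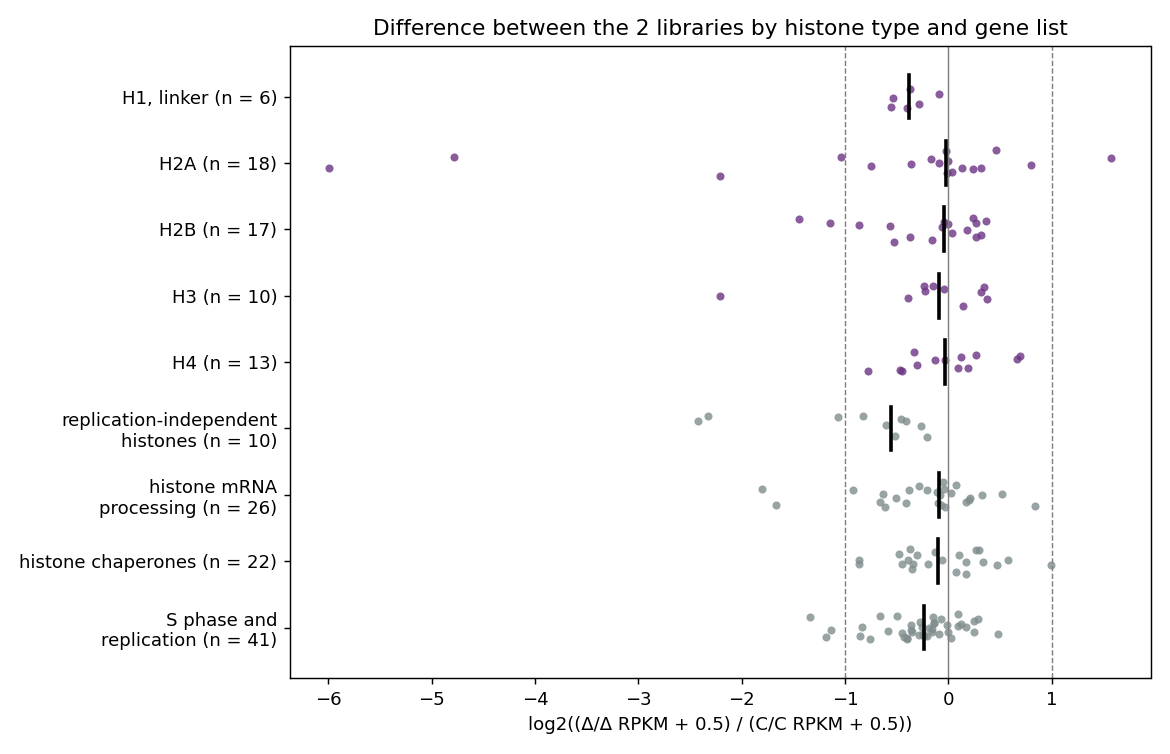
Log2 ratio of Δ/Δ to C/C for each measured gene of the 5 replication-dependent histone types and of 4 gene lists (points, with random vertical spread), with the median as a black bar and dashed lines at the 2-fold rule. The medians of H2A, H2B, H3 and H4 lie between -0.09 and -0.02, that of H1 at -0.38 and that of the replication-independent histones at -0.56.

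The third comparison concerns the machinery that makes and carries these histones. Of 26 measured genes of histone mRNA transcription, processing and decay, 0 were higher and 2 lower, with a median log2 ratio of -0.09. Over all measured genes 6.28% were higher and 6.66% lower, and the median was also -0.09. Slbp, whose product binds the stem-loops printed above, measured 120 RPKM in Δ/Δ and 185 RPKM in C/C and stayed within the rule. Mif4gd, whose product SLIP1 links SLBP to translation, was lower, at 9.94 RPKM in Δ/Δ and 36.0 RPKM in C/C, a ratio of 0.276 (interval 0.255 to 0.299). Rnu7, the U7 small nuclear RNA, was the other lower gene, at 1.09 RPKM in Δ/Δ and 4.54 RPKM in C/C, from so few reads that the interval of the ratio ran from 0.0836 to 0.585. Npat, the coactivator of histone genes in S phase, measured 10.3 RPKM in Δ/Δ and 8.81 RPKM in C/C. Of 22 histone chaperone and assembly genes none passed the rule. The largest differences were those of Atrx, a remodeller that deposits H3.3 (24.6 RPKM in Δ/Δ and 12.1 RPKM in C/C, past the rule after centring), and Asf1b, an H3-H4 chaperone of dividing cells (48.4 RPKM in Δ/Δ and 88.6 RPKM in C/C).

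Genes of S phase and DNA replication bear on a family whose mRNA is made in that phase. Of 41 measured genes 0 were higher and 3 lower, and 32 had a log2 ratio below 0, with a median of -0.24. Over all measured genes, 6.28% were higher, 6.66% were lower and 57.7% had a log2 ratio below 0. Those lower were Tk1, a nucleotide salvage enzyme (31.5 RPKM in Δ/Δ and 70.0 RPKM in C/C), and the E2F family genes E2f2 (23.2 RPKM in Δ/Δ and 59.3 RPKM in C/C) and E2f7 (4.03 RPKM in Δ/Δ and 9.79 RPKM in C/C). The part of a difference in cycling in the histone values was not tested.

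Most annotated models run past the stem-loop to some degree. Of the 42 with a stem-loop, 21 ran more than 100 bases past it and 21 ended within 100 bases. The longer models summed to 7321 RPKM in Δ/Δ and 8188 RPKM in C/C with a median log2 ratio of -0.04 and 1 lower gene. The shorter ones summed to 9519 RPKM in Δ/Δ and 9345 RPKM in C/C with a median of -0.13, 1 higher and 3 lower genes. The shares of all measured genes were 6.28% higher and 6.66% lower. How many reads lay past the stem-loop cannot be read from values per transcript.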

How the data were processed

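One table of the whole series was used. Per the file header and the labels, it holds 1 deposited RPKM value per Ensembl transcript and library, rounded by the authors to 3 decimals, with columns Del and Wt read as Δ/Δ and C/C. The submitters' processing notes name TopHat2 2.0.9, bedtools, mm9 and mm10. For this table neither build nor annotation, nor the treatment of reads that fit several copies, is given in the sources used here.

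Identifiers were matched to GENCODE M21 (GRCm38), which succeeded for 89571 of 93615 transcripts (95.7%), and each gene was represented by its transcript with the highest mean RPKM. Depth was searched for as the step that makes RPKM times length whole. Of low values of short transcripts, 96.1% in Δ/Δ and 96.8% in C/C lay within 0.1 of a whole read. Differences used a pseudocount of 0.5 RPKM and a filter of 1 RPKM, with no test. Windows of 101 bases were compared between all M21 transcripts. The depth search, the 2-fold rule and the counting intervals were tested on simulated data, and the sequence searches were not. Named genes were Setdb1, members past the rule, the 3 most abundant and the extreme members of each type, the Hist3, Hist4 and testis members, their copies, and list genes past the rule or, failing that, with the 2 largest differences; other genes were chosen after their values were seen. Members and lists were chosen with earlier results of these data known. Python 3.11.15, NumPy 2.4.6 and pandas 2.3.3 were used.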

Additional observations from a re-analysis of the deposited data

How the results depend on the processing

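No paired analysis was possible because each genotype had 1 library, and for the same reason no library could be left out. The count of higher members (1) was 2 with the longest transcript per gene, 2 without the transcripts out of row order, 4 at a 1.5-fold rule, and 0 at a 4-fold rule or without members that share windows. The count of lower members (7) was 4 at a 4-fold rule, 4 with copies summed and 1 without members that share windows. Centring on the median of all genes and a common sum without the 20 most abundant genes (in that order) turned small negative medians positive, to 0.0195 and 0.0079 for the family, 0.0758 and 0.0641 for H2A, 0.0507 and 0.0389 for H2B, 0.0656 and 0.0535 for H4 and for the Hist4 cluster, and 0.042 and 0.0303 for the Hist2 cluster. Centring alone gave 0.0031 for H3 and 0.0044 for the processing list. The summed H2A ratio (log2) became 0.0123 and 0.0008, and 0.32 without members that share windows, and that of H2B 0.0503 and 0.0388, and 0.27. The chaperone list had a median of 0.0047 with transcripts summed, and 1 higher gene (Atrx) at a pseudocount of 0.1 and under both scalings. The list of germline forms, of which 3 were measured, had 1 lower gene (2 in the main setting) and a median of -0.98 at a pseudocount of 1. Among named genes, the log2 ratios under those 2 scalings were 0.0922 and 0.0805 for Hist1h2ai, 0.0714 and 0.0598 for Hist1h2ak, 0.0312 and 0.0197 for Hist1h2bb, 0.0577 and 0.0461 for Hist1h3e, 0.0656 and 0.0535 for Hist4h4, and 0.0056 for Hist1h1d after centring. Hist1h2bq was 3.49 without the transcripts out of row order, because another of its models then stands for it. The cause of the other shifts was not tested. Depth limits only the members near 1 RPKM, since 3 reads on a transcript of 0.5 kilobases are 0.0310 RPKM in Δ/Δ and 0.0352 RPKM in C/C. The summed H3 gene values without shared windows could not be computed, because no H3 gene is free of them. The remaining 241 summary values and 292 values of single genes kept their direction and their side of the rule, or for counts stayed within 1.5 times. A further 3 gene values passed the rule and 5 fell short of it without a change of direction.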
